A study of Mus musculus with 8 samples.

Results

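The Nr4a orphan nuclear receptor genes, Nr4a1, Nr4a2 and Nr4a3, were examined in sorted cochlear hair cells of wild-type and Ndp knockout mice. They were taken from the deposited table by gene name, and all 3 were found among its 25343 genes. The set was selected on the level of Nr4a3, which was low in every knockout library, so the genotype contrast was known when the genes were chosen. Genotype differences of the members are therefore given as descriptions, with no test.

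The study compared 8 libraries. For each, 12 to 20 sensory epithelia of mice aged postnatal days 4 to 6 were pooled, dissociated enzymatically and sorted for an Atoh1-GFP reporter. Atoh1 is a transcription factor of developing hair cells. The wild-type group (WT) and the Ndp KO group had 4 libraries each, both on a mixed C57BL/6 and 129 background, and the gate was the same in both. Ndp encodes norrin, a secreted ligand of the receptor Frizzled-4 that acts on the retinal and cochlear vasculature. How pools map to litters is not in the labels, so a p-value here reflects only the spread of these libraries, part of which may be technical. Values after ± are SD over the 4 libraries of a genotype unless SE is named.

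NR4A proteins are nuclear receptors whose ligand pocket is closed by bulky side chains. Their activity is set mainly by how much protein is made, and no ligand is needed. Their genes are immediate early genes: depolarization, calcium entry, cyclic AMP, growth factors, cell stress and tissue dissociation switch them on quickly and for a short time, largely through CREB, the cyclic AMP response element binding protein, and through MEF2 and SRF. The receptors bind DNA as monomers at the NBRE element, and Nr4a1 and Nr4a2 also pair with retinoid X receptors. In neurons Nr4a2 maintains the dopaminergic identity, and in macrophages and T cells all members dampen inflammatory or effector programmes.

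The proximal promoters show what the members share at the sequence level. RefSeq promoter windows of build GRCm38.p6, of 300 bases each, matched 3 of 3 members. The stretches below run 5′ to 3′ on the gene's strand and hold only bases before the start site that no exon of the gene covers. They span chr15:101266596-101266845 (plus strand) for Nr4a1, chr2:57124004-57124253 (minus strand) for Nr4a2 and chr4:48045055-48045152 (plus strand) for Nr4a3. Capitals mark the CRE core TGACG, the shorter form of a CREB site, or CGTCA where it lies on the other strand.
Nr4a1: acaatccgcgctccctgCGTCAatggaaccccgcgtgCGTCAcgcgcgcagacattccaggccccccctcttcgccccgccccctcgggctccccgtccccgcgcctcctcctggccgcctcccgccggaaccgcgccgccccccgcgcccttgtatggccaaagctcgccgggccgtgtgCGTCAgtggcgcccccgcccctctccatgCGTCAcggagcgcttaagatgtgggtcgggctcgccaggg
Nr4a2: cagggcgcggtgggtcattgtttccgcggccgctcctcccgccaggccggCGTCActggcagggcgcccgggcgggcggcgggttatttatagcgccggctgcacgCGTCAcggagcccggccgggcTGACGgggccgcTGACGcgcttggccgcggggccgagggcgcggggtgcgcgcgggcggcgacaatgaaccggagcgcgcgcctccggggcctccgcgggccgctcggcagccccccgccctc
Nr4a3: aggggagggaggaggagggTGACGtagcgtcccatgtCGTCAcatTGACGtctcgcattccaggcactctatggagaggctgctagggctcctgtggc

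Each of the 3 windows held 4 CRE cores, searched as TGACG on both strands, where a full palindrome would count as 2 cores. In Nr4a1 their first bases lay at -233, -213, -69 and -40 relative to the RefSeq start, all as CGTCA on the gene's strand. In Nr4a2 they lay at -200, -144, -123 and -111, and in Nr4a3 at -231, -213, -205 and -147. The last core of Nr4a3 lies in an exon of another annotated transcript and is not printed. Of 32851 mouse promoter windows of this length, 20.8% held at least 1 core and 76 windows, or 0.231%, held at least 4. The members' windows were GC-rich (64.7% to 81.7% G or C), and among the 6661 windows with at least 64% G or C, 0.555% held at least 4 cores. Among 42 windows of 31 genes of the activity-induced list described below, 27 (64.3%) held at least 1 core and 0 held at least 4. The rest of that list, with Egr1, Egr3, Arc and Ier2 among them, had no window in this count. The full palindrome TGACGTCA was in 0 of the 3 member windows and in 1.79% of all windows. The SRF-binding CArG box, the AP-1 site TGAGTCA and the NBRE element AAAGGTCA were also found in 0 of the 3. Near matches were not counted, and MEF2 sites were not searched. All 4 cores of Nr4a1 read TGCGTCA, which is 1 letter from the AP-1 site, so these counts do not tell the site types apart. These counts describe letters in short windows and do not show which factors bind there.

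Nr4a1 (ENSMUSG00000023034), also called Nur77, was the most abundant member. It spans chr15:101254269-101274795 on the plus strand of mm10, with 4 transcripts of up to 8 exons in GENCODE M21, and the RefSeq start used above lies inside this span. Wild-type libraries 1 to 4 contained 1730, 3692, 1749 and 1536 normalized counts, which are read counts divided by the authors' size factor of the library. Knockout libraries 1 to 4 contained 724, 1931, 1008 and 1130 normalized counts. The second library was the highest of its genotype in both groups, and the second knockout library lay above 3 of the 4 wild-type libraries, so the genotypes overlapped. The means were 2176 ± 1015 and 1198 ± 517 (SD, n = 4 per genotype, wild type first). This is a log2 difference, knockout minus wild type, of -0.86 ± 0.33 (SE) on the scale log2(normalized count + 1).

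Nr4a2 (ENSMUSG00000026826), or Nurr1, spans chr2:57106830-57124003 on the minus strand, with 6 annotated transcripts. Its levels were 248, 110, 206 and 109 normalized counts in wild-type libraries 1 to 4. The knockout libraries held 44.3, 34.3, 86.6 and 96.8. The genotypes did not overlap, but the gap was narrow, and the lowest wild-type library was 1.13 times the highest knockout library. Nr4a2 averaged 168 ± 69.8 against 65.5 ± 30.8 (SD, n = 4 per genotype), with a log2 difference of -1.38 ± 0.45 (SE). Its lowest library rested on 35 recovered reads, against a detection floor of 3 reads, so each value stands on a small number of reads.

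Nr4a3 (ENSMUSG00000028341), or NOR1, spans chr4:48045153-48086447 on the plus strand, with 4 annotated transcripts. Its levels were 452, 406, 271 and 374 normalized counts in wild-type libraries 1 to 4. In the knockout libraries it had 105, 105, 55.0 and 91.3. The genotypes were well apart, with the lowest wild-type library at 2.57 times the highest knockout library. Nr4a3 averaged 376 ± 77.0 against 89.2 ± 23.7 (SD, n = 4 per genotype), so the knockout mean was 23.7% of the wild-type mean. The log2 difference of Nr4a3 was -2.08 ± 0.30 (SE). These values chose the set and support nothing by themselves. In bulk RNA, fewer cells with a transcript and less of it per cell cannot be told apart.

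**Figure D1:**
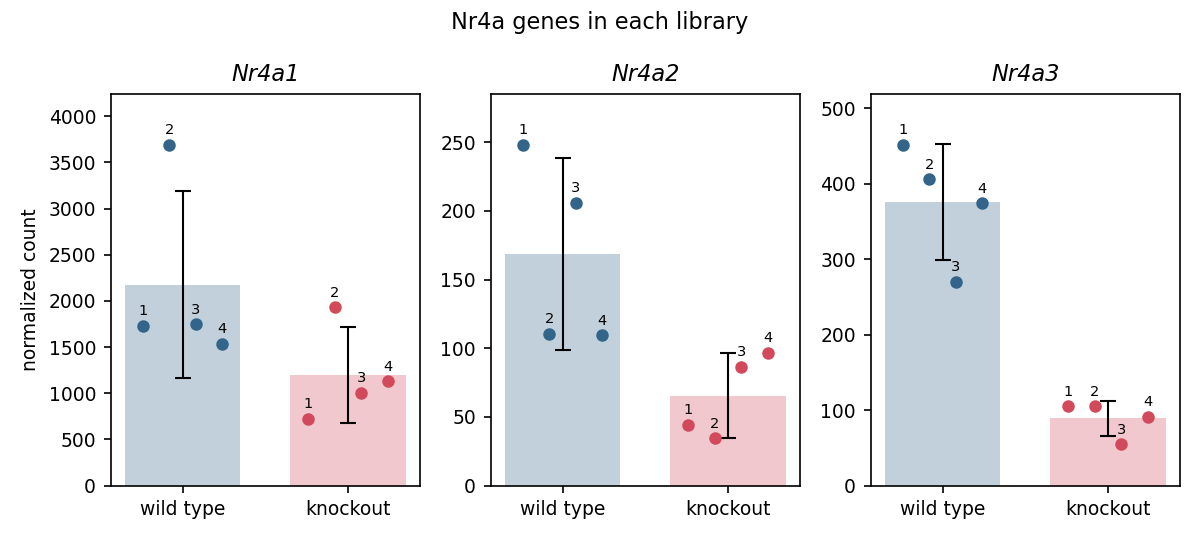
Normalized counts of Nr4a1, Nr4a2 and Nr4a3 (vertical axes, each from 0) in 4 wild-type and 4 Ndp knockout libraries; points are libraries with their replicate number, bars are means and whiskers are SD. The genotypes overlap for Nr4a1, lie close for Nr4a2 and are separate for Nr4a3, whose knockout libraries sit between 55.0 and 105 and wild-type libraries between 271 and 452.

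Over all 18203 genes tested, limma on log2 values called 0.00549% lower and 0% higher at an adjusted p under 0.05. The lower share is a single gene model, CR974586.1, named here after its value was seen. edgeR's quasi-likelihood test on recovered reads called 0% of all genes, with 828 genes at an unadjusted p under 0.05. DESeq2 on the recovered reads, with no filter on low levels, called 0.0439% of 25078 genes lower and 0.0917% higher. The genotypes did not overlap for 2 of the 3 members, both lower in the knockout, and for 1.58% of all genes tested lower and 1.46% higher. Because this contrast chose the set, no call of a member is given and nothing is read from these shares. The authors' deposited table gives log2 differences of -0.86 for Nr4a1, -1.36 for Nr4a2 and -2.08 for Nr4a3 before shrinkage. After shrinkage that deposited table gives -0.53, -0.66 and -1.47.

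Titles of the libraries carry dates, and 1 date occurs in both genotypes, for the second wild-type and the second knockout library. Within this pair the log2 difference was -0.93 for Nr4a1, -1.66 for Nr4a2 and -1.94 for Nr4a3. Over the other 6 libraries it was -0.83, -1.29 and -2.13 in the same order. Each member was lower in the knockout both inside and outside the shared date. For Nr4a2 and Nr4a3, whose genotypes did not overlap, no choice of libraries could have given another sign. What the title date records is not given in the labels, and all other dates hold a single genotype, so date and genotype cannot be told apart there.

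Inside a genotype the members followed different orders. After the mean of each genotype was subtracted from log2 values, Pearson's r over the 8 libraries was 0.21 between Nr4a1 and Nr4a3, -0.38 between Nr4a1 and Nr4a2 and -0.45 between Nr4a2 and Nr4a3. Before that step r was 0.66, 0.31 and 0.65, values that hold the genotype contrast itself. The second wild-type and knockout libraries show the divergence: they were the highest of their genotype for Nr4a1, while for Nr4a2 the second knockout library was the lowest and the second wild-type library was within 2 normalized counts of the lowest. These correlations are descriptions over 8 libraries that share depth scaling.

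The spread between libraries of a genotype also differed among the members. Nr4a1 had a within-genotype SD of 0.58 on the log2 scale. Of 5062 genes with a mean level within a factor of 2 of Nr4a1, 96.5% had a smaller SD. Fos (92.5% of 1259 genes) and Egr1 (95.1% of 1297 genes), immediate early genes induced by the same stimuli, were similarly variable for their levels. Other genes of that kind were less so, with Egr4 above 73.7% of 2770 genes of like level and Btg2 above 22.3% of 506. Nr4a2 had an SD of 0.66, larger than in 55.8% of 2771 genes of like level. Nr4a3 had an SD of 0.38 and was among the steadier genes of its level, with 29.8% of 2922 genes below it. It was chosen for being low in every knockout library, which can favour a small spread, so nothing is read from this rank.

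Per kilobase of exon, Nr4a1 made up most of the family's transcripts. Its share of the 3 genes' summed level per kilobase was 78.3% to 91.7% over wild-type libraries and 87.9% to 95.5% over knockout libraries. Nr4a3 made up 5.91% to 12.0% in wild type and 2.89% to 7.50% in the knockout, so these shares overlap. The ratio of Nr4a3 to Nr4a2 in normalized counts was 1.31 to 3.68 in wild type and 0.635 to 3.06 in the knockout. In normalized counts Nr4a2 exceeded Nr4a3 in knockout libraries 3 and 4. Per kilobase it also did so in wild-type library 3, at 50.7 against 45.2.

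Among 44 nuclear receptor genes of the table, ranked by mean normalized count per kilobase, Nr4a1 stood 4th in wild type at 620 ± 289 (SD, n = 4), after Nr2f6, Nr1h2 and Rxrb. It did not differ beyond its spread from Rora at 589 ± 157, the gene of a constitutively active orphan receptor, or from Rxrb, a partner of many receptors, at 739 ± 115. In the knockout Nr4a1 stood 12th at 341 ± 147, beside Rxrg at 342 ± 98.5. Nr4a3 stood 21st in wild type at 62.8 ± 12.9 and 30th in the knockout at 14.9 ± 3.96. Nr4a2 stood 25th and 28th, at 41.5 ± 17.2 and 16.1 ± 7.59. In wild type Nr4a3 was close to Esrrg at 55.7 ± 14.1 and Esr2 at 54.8 ± 25.0.

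**Figure D2:**
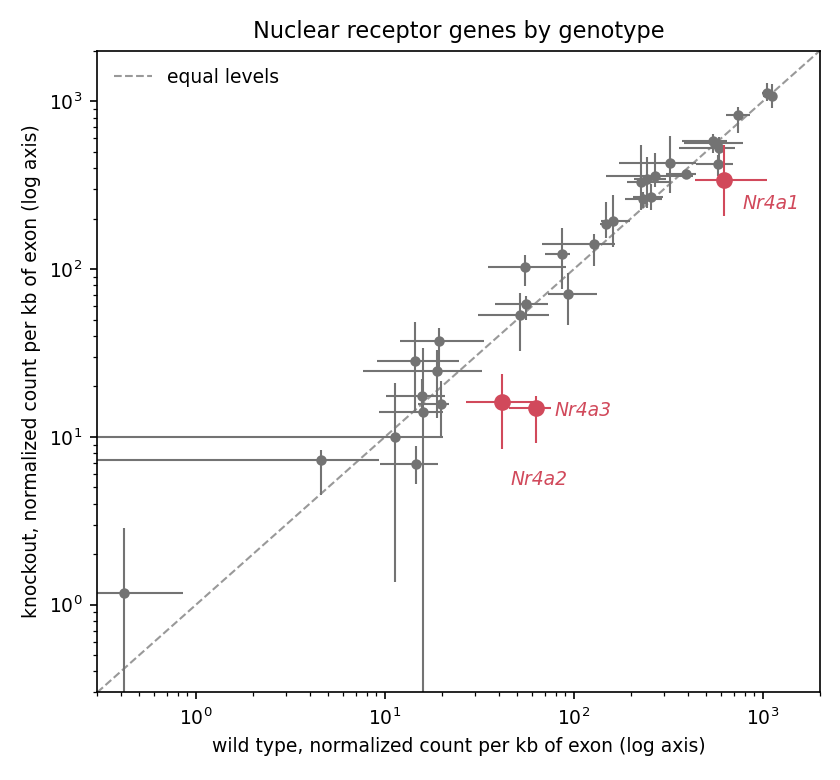
Mean normalized count per kilobase of exon of each tested nuclear receptor gene in wild type (horizontal, log axis) and Ndp knockout (vertical, log axis); bars run from the lowest to the highest of 4 libraries, and a bar that reaches the edge includes a library at 0. Nr4a1, Nr4a2 and Nr4a3 (red) lie below the dashed line of equal levels.

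The other receptors showed mixed signs. Of 32 other nuclear receptor genes tested, 8 had a negative and 24 a positive log2 difference, with a median of 0.19 against 0.02 over all genes. Limma called 0 of them in either direction (lowest adjusted p = 0.895). Among them 2 lower and 2 higher genes, Ppard, Nr2f1, Esr2 and Rarg, had an unadjusted p under 0.05, a level at which 2.47% of all genes were lower and 3.1% higher. Ppard, the fatty acid sensor PPAR-delta, averaged 110 ± 33.8 normalized counts in wild type against 51.6 ± 11.0, with no overlap. Esr2, estrogen receptor beta, averaged 185 ± 84.1 in wild type against 347 ± 71.7, and Rarg, a retinoic acid receptor, 81.8 ± 41.9 against 159 ± 41.6. Within the shared-date pair the median of these 32 genes was -0.12, and over the other 6 libraries it was 0.23.

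Genes induced by the same stimuli were compared next. This list held 41 tested immediate early and fast-response genes other than the members, such as the Fos, Jun and Egr transcription factors and the Dusp phosphatases that end MAP kinase signalling. It had 25 negative and 16 positive log2 differences and a median of -0.23, where over all genes 47.5% were negative. Limma, edgeR and DESeq2 each called 0 of them (lowest limma adjusted p = 0.895). At an unadjusted p under 0.05 limma listed 9 lower and 1 higher, where 2.47% of all genes were lower and 3.1% higher. The genotypes did not overlap for 2 genes, Egr4 and Jun, both lower, where 1.58% of all genes were lower with no overlap. The 9 were Egr4, Egr2, Egr1, Fos, Fosb, Jun, Ier2, Dusp6 and Klf6. The higher gene was Ptgs2, the inducible cyclooxygenase, at 0, 102, 0 and 26.7 normalized counts in wild type and 118, 43.2, 278 and 102 in the knockout, named after its values were seen. DESeq2 listed 14 and edgeR 11 of the list at that unadjusted level in either direction. As background, DESeq2 listed 6.09% of 25078 genes, with no filter on low levels, and edgeR 4.55% of 18203 genes. Summed over the list, wild-type libraries had 95544 to 146572 normalized counts and knockout libraries 75194 to 98303, so the sums overlapped. Within the shared-date pair 29 of the 41 genes were negative, with a median of -0.55. Over the other 6 libraries the median was -0.20.

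The count of 9 depended on single libraries. It was 4 without the second wild-type library, 5 without the first wild-type or the third knockout library, 6 without knockout library 1 or 4, 14 without the third wild-type library and 14 without the second knockout library. The list's median stayed between -0.32 and -0.20 in all 17 alternative settings.

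Egr4, an early growth response factor, came nearest to the pattern of Nr4a3 in size. It had 303, 220, 131 and 120 normalized counts in the wild-type libraries and 62.2, 47.1, 13.5 and 63.8 in the knockout libraries. The groups did not overlap, and the log2 difference was -2.14 ± 0.53 (SE), with a limma adjusted p of 0.895. In the authors' deposited table its adjusted p was 0.0505. Egr2, a related factor and also a Schwann cell gene, had 2517, 3438, 1289 and 1084 normalized counts in wild type and 881, 1209, 531 and 954 in the knockout. Its log2 difference was -1.12 ± 0.37 (SE), and the second knockout library lay above the lowest wild-type library.

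Several abundant members of the list were also lower on average, by less. Fos, a subunit of AP-1, had 15822, 21872, 10255 and 12044 normalized counts in wild type and 7638, 12622, 5944 and 9782 in the knockout. Egr1, a zinc finger factor, averaged 14773 ± 7038 against 8751 ± 2304. Jun, the partner of Fos, had a log2 difference of -0.63 ± 0.21 (SE), Ier2 of -0.53 ± 0.20 and Dusp1 of -0.63 ± 0.29. Btg2, an antiproliferative gene and the most abundant of the list, averaged 23260 ± 2380 against 20737 ± 2180, with a log2 difference of -0.17 ± 0.13 (SE). Not every abundant member was lower. Jund, another AP-1 subunit gene, averaged 4391 ± 490 against 4415 ± 423, and Bhlhe40 averaged 2442 ± 912 against 3290 ± 1686. None of these passed limma over all genes, where the lowest adjusted p of the list was 0.895.

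**Figure D3:**
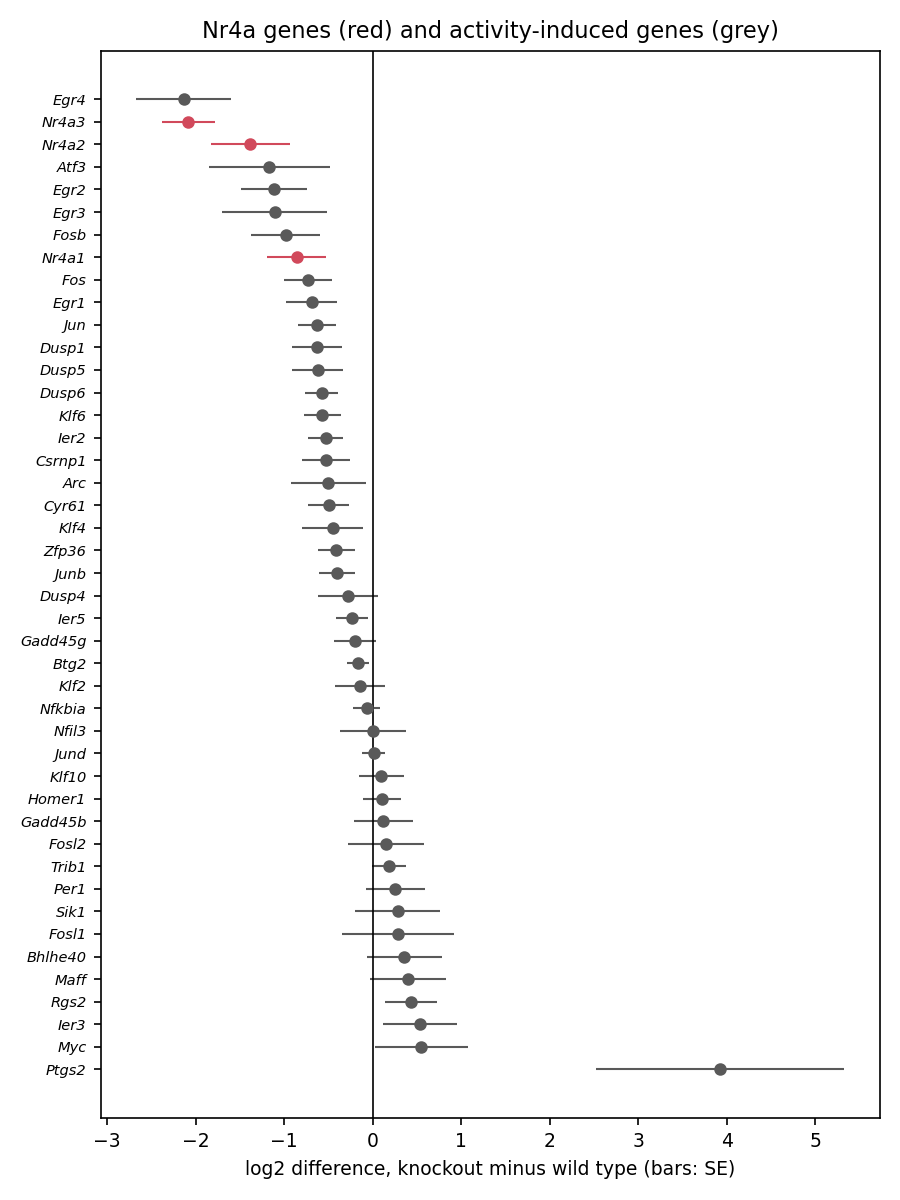
Log2 difference, knockout minus wild type, of the Nr4a genes (red) and 41 activity-induced genes (grey), with SE bars from the limma fit on 4 libraries a genotype. Egr4 and Nr4a3 have the most negative values (-2.14 and -2.08) and the list as a whole spreads to both sides of 0; the signs of some genes near 0 and of low genes depend on the setting.

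Some activity-induced genes lay on the other side. Per1, a clock gene with a cyclic AMP response, averaged 210 ± 26.6 normalized counts in wild type against 270 ± 115. Sik1, a salt-inducible kinase that restrains CREB coactivators, averaged 112 ± 47.1 against 143 ± 77.5. Both differences are within the spread of the libraries. Npas4, a neuronal factor induced by calcium, had too few reads to be tested, with means of 2.05 and 6.05 normalized counts.

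Libraries differed in their immediate early genes inside each genotype as well. Of the 41 activity-induced genes, 13 (31.7%) were highest in the second library of both genotypes, the shared-date libraries, against 6.26% of all genes tested. The third knockout library was the lowest knockout library for 23 of the 41 (56.1%), against 24.9% of all genes, and the third wild-type library the lowest for 15 (36.6%), against 23.5%. These libraries were singled out after their values were seen. Nr4a1 was highest in the second library of both genotypes, and Nr4a3 was lowest in the third of both. Nr4a2 followed neither order.

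Likeness across the 8 libraries was measured by Pearson's r of log2 values over 14402 genes with a mean of at least 50 normalized counts. Of 40 activity-induced genes, 9 were among the 144 genes most like Nr4a1, namely Egr1 (r = 0.90), Dusp5, Fos (r = 0.89), Cyr61, Klf6, Jun, Dusp1, Egr2 and Junb. For Nr4a3 there were 6, Egr4, Ier2, Jun, Egr2, Fosb and Fos, and for Nr4a2 there were 0. These counts hold the genotype contrast itself. With genotype means subtracted, 0 were left for Nr4a1, 2 for Nr4a3 (Egr4 and Ier2) and 0 for Nr4a2. The median r of the 40 genes on that within-genotype scale was 0.36 for Nr4a1 and 0.41 for Nr4a3, against medians of 0.04 and -0.000913 over all genes. For Nr4a2 it was -0.26. These are descriptions, with no test, over libraries that share depth scaling.

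**Figure D4:**
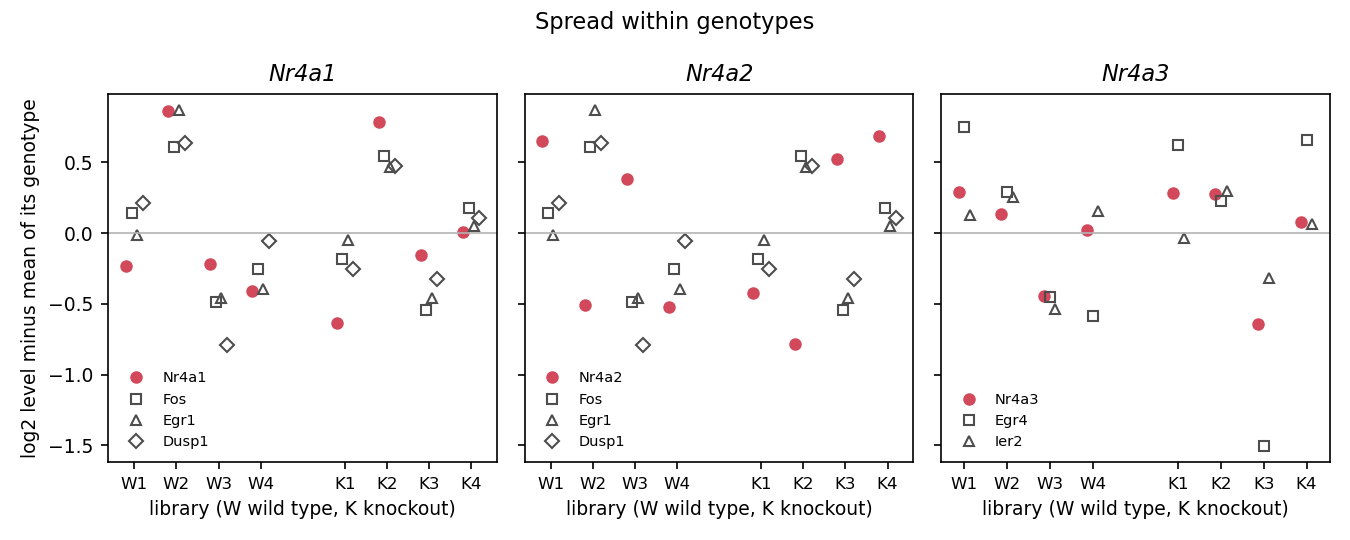
Log2 level minus the mean of the library's genotype (vertical axis) in wild-type (W1 to W4) and knockout (K1 to K4) libraries for each Nr4a gene (red) and activity-induced genes (open symbols) chosen after their values were seen. Nr4a1 is high in W2 and K2 with Fos, Egr1 and Dusp1, Nr4a2 is low there, and Nr4a3 is low in W3 and K3 with Egr4 and Ier2.

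The 5 genes most like each member over the 8 libraries were all from outside the activity-induced list. For Nr4a3 they were Pdzd2 (r = 0.97), Blmh, Ears2, Gm20421 and Igsf8. Pdzd2, which encodes a protein with PDZ domains, had 969, 734, 750 and 920 normalized counts in wild type and 415, 455, 307 and 471 in the knockout. The groups did not overlap, but r over the 8 libraries holds the genotype contrast that chose the set. A gene picked by it for Nr4a3 is therefore lower in the knockout through its choice. For Nr4a2 they were Mafg (r = 0.99), Stk33, Skp2, 0610040J01Rik and Zfp369. Mafg, a small Maf transcription factor, followed Nr4a2 in both genotypes, with 1459, 1194, 1378 and 1267 normalized counts in wild type and 972, 927, 1160 and 1188 in the knockout. For Nr4a1 they were Fbxw17 (r = 0.97), Clic6, Egfl6, Fat4 and Rnf112.

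Within genotypes the closest genes changed. They were Cryz, Tmem252, Tspan6, Ndn and Gm4735 for Nr4a3, and Efcab12, Gpld1, Trim3, Zbtb2 and Pfkl for Nr4a1. For Nr4a2 they were Coq10a, Gm47260, Mafg, Trmt12 and Ascc3, so Mafg was near Nr4a2 by both measures. Cryz, a quinone oxidoreductase gene, tracked Nr4a3 within genotypes (r = 0.98) but had the opposite genotype difference, at 1449 ± 74.3 normalized counts in wild type against 1932 ± 159. Tmem252, which encodes a membrane protein, averaged 449 ± 138 against 234 ± 83.7. These genes are the extremes of 14402 compared over 8 libraries.

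Genes that act upstream of the members were set beside all genes, which had a median log2 difference of 0.02 and 47.5% negative values. Of 32 genes of cyclic AMP and CREB signalling, 10 had a negative and 22 a positive log2 difference, with a median of 0.14. Limma called 0 (lowest adjusted p = 0.895) and listed 1 lower and 0 higher at an unadjusted p under 0.05, where 2.47% of all genes were lower. That gene was Pde4b, a cyclic AMP phosphodiesterase, at 3498 ± 497 normalized counts in wild type against 2751 ± 409. Prkar1b, a regulatory subunit of protein kinase A, averaged 465 ± 39.8 against 354 ± 35.4 with no overlap. Crem, which encodes a CREB-related activator and a repressor, averaged 247 ± 88.9 against 332 ± 54.0. Of 24 calcium, MEF2 and SRF regulators, 10 were negative and 14 positive, with a median of 0.05, and limma called 0 of them and listed 1 lower at an unadjusted p under 0.05. That was Hdac4, a repressor of MEF2, at 2553 ± 499 normalized counts in wild type against 1922 ± 347. Srf itself averaged 496 ± 75.7 against 382 ± 54.8. Within the shared-date pair the median of the cyclic AMP list was -0.12, against 0.25 over the other 6 libraries, and that of the calcium list -0.08 against 0.08. Over all 15 gene lists compared, edgeR called 0 genes, and DESeq2 called 1, Coch.

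Partners and reported targets were compared in the same way. Of 16 retinoid X receptor and coregulator genes, 6 were negative and 10 positive, with a median of 0.11. Even at an unadjusted p under 0.05, limma and edgeR each listed 0 of them. DESeq2 listed 2, Pias4 and Rxrg, where it listed 6.09% of 25078 genes. Rxrg, a partner of Nr4a1 and Nr4a2, averaged 557 ± 102 normalized counts in wild type against 786 ± 226. Pias4, a SUMO ligase, averaged 2373 ± 392 against 1930 ± 83.3 with no overlap. Of 23 tested genes reported as Nr4a targets in other tissues, 11 were negative and 12 positive, with a median of 0.04, and limma called 0 of them and listed 3 higher at an unadjusted p under 0.05. These were Ret, Spp1 and Slc2a4, at a level where 3.1% of all genes were higher.

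The 3 listed targets were low or uneven between libraries. Ret, a receptor tyrosine kinase gene, had 0, 2.74, 63.2 and 4.65 normalized counts in wild type and 121, 20.6, 44.2 and 40.7 in the knockout. Spp1, which encodes osteopontin and is also expressed in macrophages, had 59.1, 52.0, 271 and 32.6 in wild type and 52.7, 346, 5255 and 682 in the knockout. Bdnf, a neurotrophin gene of sensory hair cells and a reported target, was abundant, at 5156 ± 697 in wild type against 4842 ± 453, a difference within the spread of the libraries. Heat shock genes, which respond to cell stress, had 5 negative and 9 positive log2 differences of 14, a median of 0.06 and 0 genes at an unadjusted p under 0.05 in limma, edgeR or DESeq2.

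Neighbours of the members were examined within 500 kilobases. Around Nr4a3 all 5 tested genes, Stx17, Erp44, Invs, Tex10 and Msantd3, had log2 differences between -0.27 and 0.04. Around Nr4a1 11 genes were tested, with a median of -0.11, and around Nr4a2 there were Gpd2 and A930012O16Rik. Limma and DESeq2 called 0 of these 18 genes, and 0 had an unadjusted p under 0.05 in limma. The sign of 11 of the 18 depended on the setting. No annotated gene overlapped a member in GENCODE M21, so no antisense gene of that annotation shares their reads, although the library kit does not keep strand.

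Markers of cell types were compared because the sort can hold other cells. Hair cell markers summed to 414025 to 457499 normalized counts in wild type and 431208 to 505164 in the knockout, and 0 of 17 were at 0 in any library. Of these markers 11 had a positive log2 difference, and limma called 0. It listed 3 higher at an unadjusted p under 0.05, Tmc1, Slc26a5 and Ocm, genes of mechanotransduction and outer hair cells. At that level 2.47% of all genes were lower and 3.1% higher. Within the shared-date pair Slc26a5 and Tmc1 went the other way, at 12302 and 7749 normalized counts in wild type against 8147 and 6880. Ocm was higher in the knockout there, with 11674 in wild type against 19235. Markers of supporting cells, which surround hair cells, were abundant too, at 218485 to 420307 in wild type and 257395 to 342195 in the knockout, with 0 of 16 at 0. Of 16 supporting cell markers 13 had a negative log2 difference, limma called 0 and 4 were lower at an unadjusted p under 0.05. These were Hes1, Sox2 and the Notch targets Hes5 and Hey1. Hes5 averaged 6400 ± 1093 normalized counts in wild type against 3342 ± 1020, and Hey1 4826 ± 941 against 3177 ± 567. Both were lower with no overlap, as were 1.58% of all genes tested. The second library, highest for Nr4a1, had the highest supporting cell sum of both genotypes, 420307 and 342195. The marker Tectb alone held 259071 and 213675 of these counts, so the size of the sums rests largely on this gene. Tectb itself was highest in the fourth wild-type library, at 263445, and in the second knockout library. The wild-type order of the sums is therefore not that of Tectb alone. Nr4a3 was lowest in the third library of both genotypes, where the supporting cell sum was 218485 in wild type, the lowest, and 312947 in the knockout, above those of knockout libraries 1 and 4. The part of supporting cells in the members' levels was not tested.

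Macrophage and vessel markers had mostly positive differences. Macrophage markers summed to 2156 to 5574 normalized counts in wild type and 4060 to 6406 in the knockout. Of 14 log2 differences 13 were positive, with a median of 1.74. Limma called 0 and listed 5 higher at an unadjusted p under 0.05 (Adgre1, C1qa, C1qc, Fcer1g and Lyz2), where 3.1% of all genes were higher. Adgre1 and Ptprc were at 0 in at least 1 wild-type library, and no macrophage marker was at 0 in a knockout library. Endothelial markers were low, with sums of 141 to 261 in wild type and 288 to 467 in the knockout, with 7 of 8 tested positive. Flt1 and Tek were at 0 in at least 1 wild-type library, and Sox17 was at 0 in every wild-type library and in all knockout libraries but the first. Mesenchyme markers summed to 24915 to 30761 in wild type and 27000 to 42780 in the knockout, with 10 of 14 positive, and DESeq2 called Coch higher. Within the shared-date pair their median log2 difference was -0.14, and over the other 6 libraries 0.62. Neuron markers summed to 69191 to 77856 and 68374 to 73536. Schwann cell and glia markers, a list that also holds Egr2, summed to 10164 to 18227 and 8313 to 18169. Blood cell markers other than macrophages had 2 of 10 genes tested and sums of 69.4 to 319 and 84.3 to 201. The part of these cells in the members' levels was not tested.

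Ndp was read as a check of the labels. It had 174, 90.4, 114 and 206 normalized counts in the wild-type libraries and 10.5, 22.6, 66.8 and 45.1 in the knockout libraries, so the genotypes did not overlap. Of all genes tested, 1.58% were also lower with no overlap. Reads of Ndp remained in every knockout library, so the check rests on lower levels and not on absence. Recovered reads ranged from 35077950 to 48329827 per library, and 3 reads were worth 2.34 to 3.49 normalized counts.

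The members' differences had the same sign in every setting tried. Nr4a2 and Nr4a3 did not overlap between genotypes, so leaving out libraries could not change their sign. Nr4a3 was also chosen for being low in the knockout. For both genes the settings show how far the size moved and are no check of direction. Over 17 alternatives, among them other scalings, pseudocounts and count models and each library left out in turn, the log2 difference ran from -1.12 to -0.57 for Nr4a1, from -1.61 to -1.12 for Nr4a2 and from -2.23 to -1.87 for Nr4a3. Both ends of each range came from a left-out library. For Nr4a1, the value nearest 0 was reached without the second wild-type library.

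**Figure D5:**
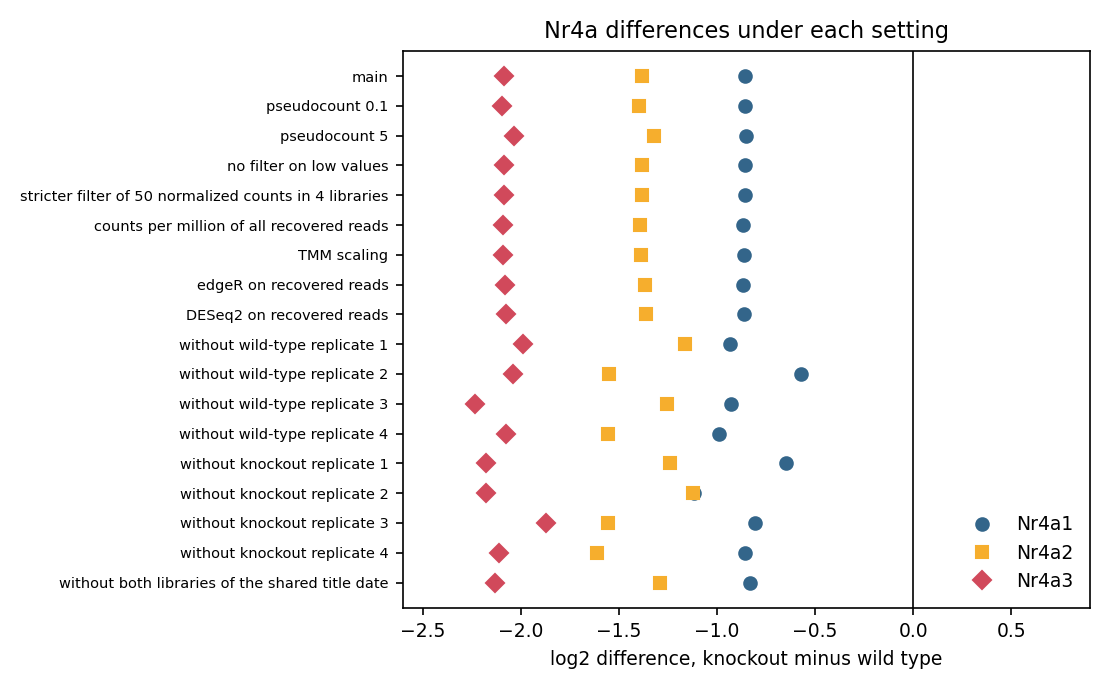
Log2 difference, knockout minus wild type (horizontal axis), of Nr4a1, Nr4a2 and Nr4a3 in the fit reported and under 17 alternatives (vertical axis). All points lie to the left of 0, and those of Nr4a3 lie between -2.23 and -1.87.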

How the data were processed

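RNA of sorted hair cells was measured in 8 libraries, 4 per genotype, grouped by the genotype label. The authors deposited 1 table of normalized counts (a signal in units of reads divided by a size factor per library), with their own log2 fold changes and p-values, per the file headers. Per the submitters' processing notes the tools include bcl2fastq 2.20, Salmon 0.14.2 and DESeq2 1.26.0, with build mm10 and no roles given. cDNA came from SMART-Seq v4 and libraries from Nextera XT, per the labels' protocols, so strand is not kept.

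Whole reads were recovered from the columns, with 100% of 202744 values whole to a tolerance of 1e-06. They are called reads here, although they may be rounded estimates. Intervals and floors cover counting error only. Replicate numbers follow accession order and are names only. The libraries numbered 2 of both genotypes happen to share a title date, which is the only date in both. Every pair of libraries within a genotype differed by more than sampling noise.

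The test was limma 3.58.1 in R 4.3.3, two-sided, with an intensity trend, on log2(normalized count + 1) of 18203 genes with at least 10 normalized counts in at least 4 libraries. P-values were Benjamini-Hochberg adjusted over all genes, with a threshold of 0.05. A fold change on this scale understates the change of low genes. edgeR 4.0.16 and DESeq2 1.42.0 on recovered reads, and the other alternatives, are given in the closing section. The tests were tested on simulated data. Lengths, exons and neighbours came from GENCODE M21, whose coordinates match the table's for the members.

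The members and gene lists were chosen with earlier results of these data known. Genes named are the members, the 3 of each list with the smallest unadjusted p, a set of pathway genes, the 5 genes most like each member by either measure, and neighbours within 500 kilobases. Genes named outside this rule were chosen after their values were seen.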

Additional observations from a re-analysis of the deposited data

Results flagged for a closer look

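Among 82 groups of 4 libraries checked for a library far from the other 3, 7 were flagged, and chance flags about 1 in 20 groups. The highest wild-type library of Nr4a1 stood at 3692 normalized counts, against 1536 to 1749 in the other 3, and is the second library, which shares its title date with the second knockout library. Without it the Nr4a1 log2 difference was -0.57. The lowest wild-type library of Crem stood at 115, against 282 to 305. The highest knockout library of Dusp6 stood at 1832, against 1330 to 1395. The highest wild-type library of Egr3 stood at 226, against 111 to 122. For Ret the highest wild-type library stood at 63.2, against 0 to 4.65. For Spp1 the highest wild-type library stood at 271, against 32.6 to 59.1, and the highest knockout library at 5255, against 52.7 to 682; both are the third library of their genotype.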

How the results depend on the processing

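The log2 differences of the 3 members kept their sign and moved by less than the SD within genotypes in all 17 alternatives. A kept sign is no check for Nr4a2 and Nr4a3, whose genotypes did not overlap. The number of genes called by genotype was 1 as reported, and 0 with a pseudocount of 0.1, with a filter of 50 normalized counts in 4 libraries, with edgeR and without both libraries of the shared title date. It was 34 with DESeq2 and 0 to 2 when each library was left out in turn. Activity-induced genes called stayed at 0 throughout. Genes called among the other lists were 0 as reported and 1 with DESeq2, Coch. Of 114 named genes tested, 38 were followed across the settings, and 0 of those changed sign in any. The 38 were chosen to be shown and are not a random part of the 114. Their 0 does not measure how stable the signs are. Of the other 76, 24 changed sign in at least 1 setting. They include 11 of the 18 tested neighbours of the members, whose differences are near 0 or whose levels are low. Also among them are the pathway genes Creb1, Crtc2, Homer1, Mef2d, Rcan1 and Rxra, whose levels are not given above. The alternatives for the other lists, the list's median and the named genes, and the values within the shared-date pair and over the other 6 libraries, were added after the data were seen. No paired analysis was possible because the labels carry no replicate numbers shared by the genotypes. Nr4a2 rests on the fewest reads, 35 in its lowest library, so its level is the least precise of the 3.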
